A study of Xenopus tropicalis with 9 samples.

Results

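Heat shock proteins and their J-domain (DnaJ) partners are the chaperones that fold, refold and escort other proteins. The members were the genes of the deposited table whose names begin with hspa, hspb, hspd, hspe, hsph, hsp90, dnaja, dnajb or dnajc, with *hsf1* and *hsf2* added, which gave 72 of 23633 genes. RNA was sequenced from whole *Xenopus tropicalis* embryos of the Nigerian strain at early neurula stage 14, cultured at 23 degrees, with 3 libraries per condition. Control embryos received water, Fgf4 overexpressing embryos 5 pg of a Cska-Fgf4 plasmid, and Cic knockdown embryos 1 ng each of mRNAs encoding a pair of Cic-TALENs, engineered nucleases directed at *cic*, a gene for a transcriptional repressor. All embryos were otherwise the same strain and stage. Embryos injected with a nuclease or a plasmid are usually mosaic, the Cska (cytoskeletal actin) promoter is not specific to a tissue, and each library is a mixture of all the tissues of the embryo. In such bulk samples fewer cells of a type and less RNA per cell cannot be told apart.

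Hsp70 proteins bind unfolded stretches of a client protein and release them in a cycle driven by ATP. J-domain proteins bring clients to Hsp70 and start ATP hydrolysis, and nucleotide exchange factors such as the Hsp110 proteins reset the cycle. Hsp90 takes over clients that are nearly folded, the mitochondrial Hsp60 and Hsp10 chaperonin folds proteins inside a closed cage, and small heat shock proteins hold clients without using ATP. Many of these genes have a partner that is always on and a partner that is switched on by heat through heat shock factor 1, the product of *hsf1*. Others serve a single compartment or structure, such as the endoplasmic reticulum (ER), the mitochondrion, the spliceosome or the cilium.

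The values are TPM, transcript abundances corrected for transcript length and library size, as the authors deposited them. They had been rescaled between libraries, since the columns sum to between 871757 and 1162165, and the 3 highest sums were those of the replicate 3 libraries. Each gene with a mean of at least 1.5 TPM in a condition was fitted with limma on log2(TPM + 0.5), with condition and replicate number as terms. A call required an unadjusted limma p of 0.01 or less together with a log2 change of 0.807 or more in either direction (a fold of 0.571 or less for lower genes). Every change below is on the TPM + 0.5 scale. Of the members, 60 reached the level limit in at least 1 condition and 12 did not.

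The replicate 3 libraries stood apart from the other 6 across the whole table. Of 13833 genes tested, 14.1% were called higher and 12.1% lower in replicate 3 than in replicates 1 and 2, the 3 conditions pooled in the fit. The study's methods model the batch of embryos, but no source used here says which library came from which batch. The replicate number is therefore all that can be compared, and it cannot be told apart from anything else that differed between the 3 sets of libraries. Each number is a single set, so the p values of these comparisons measure scatter within sets, not how much sets vary. As a check of the labels, *fgf4* stood at 95.4 to 1692 TPM in the Fgf4 libraries and at 0.953 to 6.57 TPM in the other 6. The level of *cic*, which a cut in the gene need not lower, was 11.8 to 14.7 TPM in the Cic knockdown libraries and 13.4 to 14.7 TPM in control.

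Taken by level, the chaperones formed a short list of abundant housekeeping genes and a long tail. The cognate Hsp70 gene *hspa8*, the always-on cytosolic Hsp70, was the most abundant member, at 2590 to 4029 TPM in the 9 libraries, and made up 37.5 to 47.0% of the summed level of all members. The constitutive cytosolic Hsp90 gene *hsp90ab1* followed at 639 to 932 TPM, and *dnaja2*, a J-domain partner of Hsp70, at 518 to 954 TPM. These ranges overlap each other, and neither exceeds the other beyond its spread. Next came the J-domain genes *dnaja1* at 181 to 476 TPM and *dnajc19*, whose product sits at the mitochondrial import motor, at 213 to 478 TPM. All members together summed to 6853 to 8571 TPM, or 0.625 to 0.869% of each library's total.

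The 12 members under the level limit were *hspa1a*, *hspa12a*, *hspa12b*, *hspb1*, *hspb2*, *hspb3*, *hspb6*, *hspbap1*, *dnajb4*, *dnajc5b*, *dnajc12* and *dnajc22*. Of these *hspb2* and *hspb3* were listed at 0 in all 9 libraries, and *hspb1*, the classic heat-inducible small heat shock gene, was at 0 in 7. The Hsp70 gene *hspa1a* did not exceed 0.0794 TPM in any library. *hspbap1*, for a protein that binds Hspb1, lay just under the limit with a mean of 1.30 TPM, and *hspb8* just over it in control alone, where replicate 1 stood at 4.96 TPM and the other libraries of the study at 0.0612 to 1.34 TPM.

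**Figure D1:**
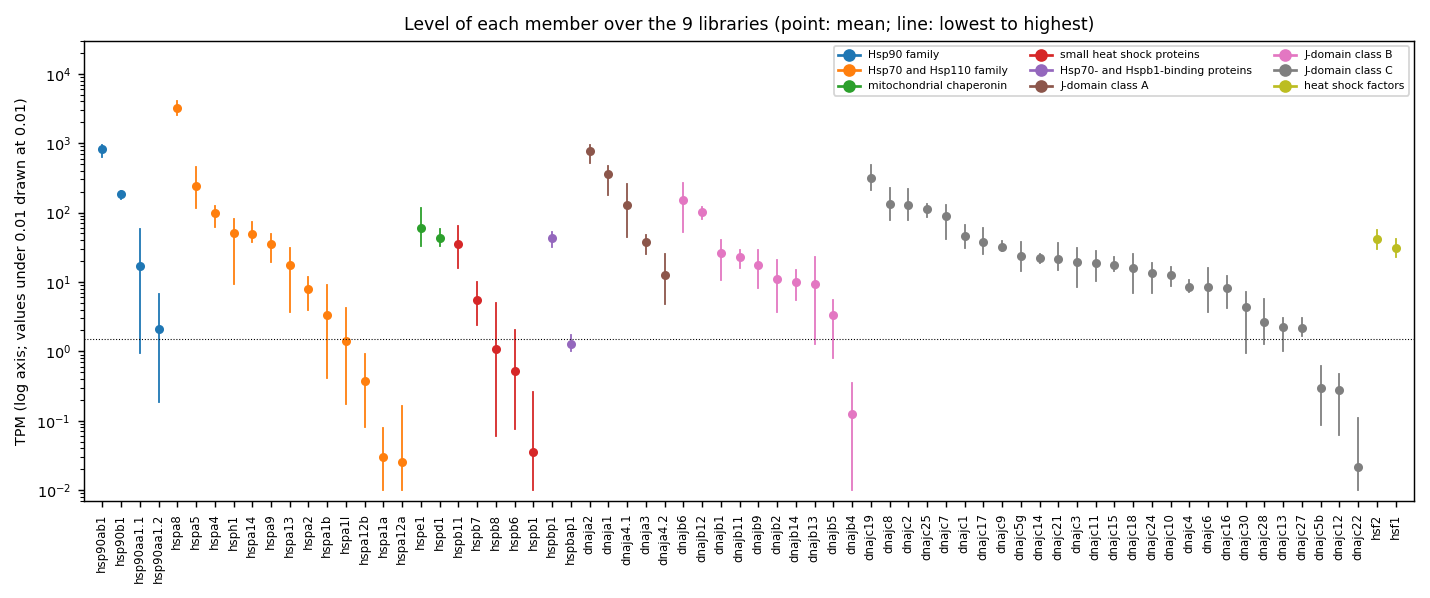
Mean TPM of each member over the 9 libraries (points) with the lowest and highest library (lines), on a log axis and coloured by role class; the dotted line marks 1.5 TPM, and the 2 members at 0 in all libraries are not drawn. *hspa8* stands highest, at 2590 to 4029 TPM. The longest lines among the tested members include *hspb8*, whose highest library is control replicate 1, *hsp90aa1.1*, *hsp90aa1.2* and *hspa1l*.

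The first question was whether the chaperones move between the 3 sets of libraries that share a replicate number. Of the 60 members tested, 15 were called higher and 10 lower in replicate 3, beside the 14.1% and 12.1% of all genes given above; whether the members' shares differ from these was not tested. The counts by role class below stand beside the same shares of all genes, rest on few genes each and were not tested either. Of the 15, *hsp90aa1.2* and *hspa1l* reached the level limit only through replicate 3, where they are high, and so had to differ. Among the 57 members that reached it both in replicates 1 and 2 and in replicate 3, a restriction chosen after seeing the data, 13 were higher and 10 lower, beside 13.9% and 11.5% of all genes so restricted. The median log2 change of the members was 0.02, close to the 0.03 of all genes tested, and members of the same family lay on opposite sides. All 3 replicate 3 libraries lay above the other 6 for 16 members (26.7%) and below for 15 (25.0%) on the deposited scale. The same held for 18.3% and 17.7% of all genes. The 16 include *hsp90aa1.2* and *hspa1l*, which the level limit let in only through replicate 3. With each library scaled to the same total, the members split as 10 higher and 14 lower and the median of all genes moved from 0.03 to -0.22. The share of higher genes among all calls then fell from 53.8% to 29.5%.

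**Figure D2:**
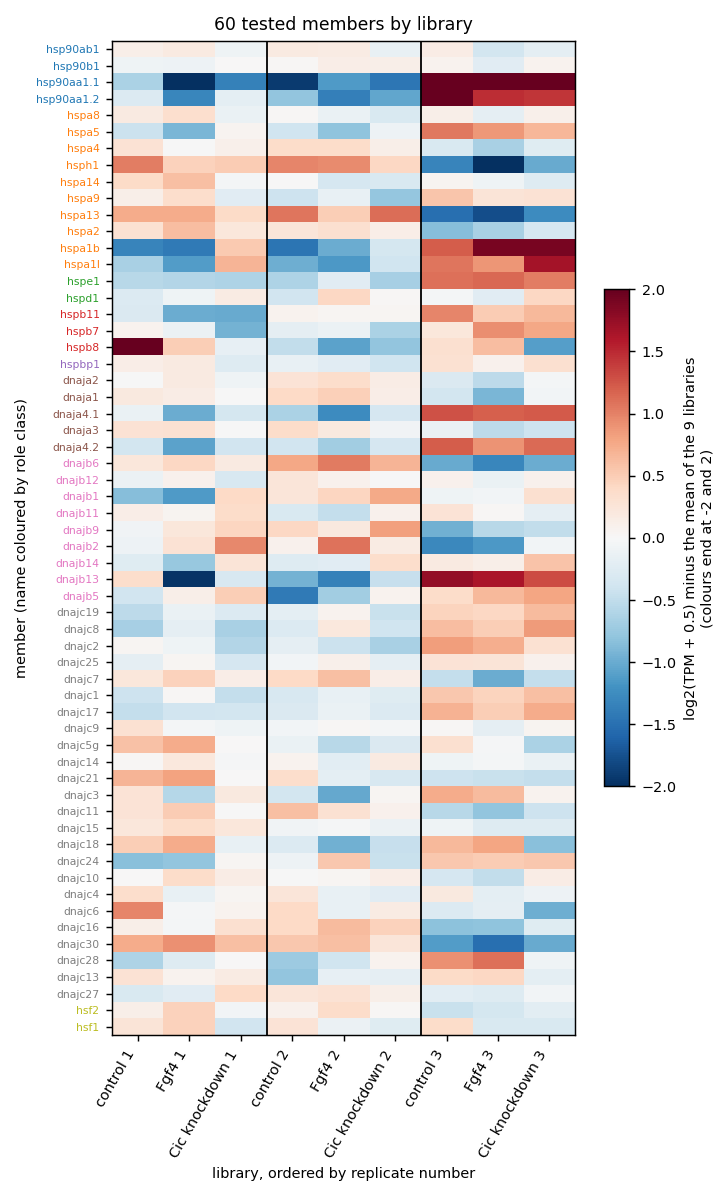
Level of the 60 tested members in each library as log2(TPM + 0.5) minus the mean of the 9 libraries, with libraries ordered by replicate number and names coloured by role class. The 3 replicate 3 columns differ from the other 6 in all conditions, red for *hsp90aa1.1* and *hspe1* and blue for *hsph1* and *hspa13*.

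In the Hsp90 family the *hsp90aa1* copies, the Hsp90 type that is induced by heat in mammals, stood apart in replicate 3, and the ranges of the other members overlapped. *hsp90aa1.1*, an Hsp90 gene that in zebrafish is expressed in the somites and needed for myosin folding, stood in replicates 1, 2 and 3 at 3.59, 1.19 and 58.1 TPM in control, at 0.953, 2.39 and 49.8 TPM in Fgf4 libraries, and at 1.99, 1.84 and 33.6 TPM in Cic knockdown libraries. Every replicate 3 library lay far above the other 6. The log2 change was 4.31 (SE 0.35, 19.8-fold, adjusted p = 0.000312, limma with Benjamini-Hochberg adjustment), the steepest of any member.

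Its neighbour in the genome, *hsp90aa1.2*, stood at 0.184 to 1.05 TPM in replicates 1 and 2 and at 4.30 to 6.78 TPM in replicate 3 (log2 change 2.48). This is a description, since the gene entered the fit only through replicate 3. Reads may be shared between these neighbouring copies, which was not tested, so the sum is also given. It was 1.18 to 4.56 TPM in replicates 1 and 2 and 37.9 to 64.9 TPM in replicate 3, which is 0.126 to 0.508% and then 4.99 to 7.84% of the cytosolic Hsp90 transcripts when *hsp90ab1* is added. By contrast the ranges of *hsp90ab1* overlapped (744 to 932 TPM against 639 to 915 TPM), as did those of *hsp90b1*, the Hsp90 of the ER (173 to 204 TPM against 160 to 196 TPM). The 12 genes of a muscle and somite list summed in replicates 1, 2 and 3 to 4467, 2438 and 6951 TPM in control and to 10290, 1654 and 9291 TPM in Fgf4 libraries. In Cic knockdown libraries the sums were 3145, 2508 and 2699 TPM. In replicate 3, 1 of the 11 tested (*myod1*) was called higher, beside 14.1% of all genes. The median log2 change of the 11 was 0.64, with 9 above 0 and 4 at an unadjusted p under 0.05 in limma. Of all 13833 genes tested, 7120 lay above 0 and 7406 had an unadjusted p under 0.05 in limma. Whether the list differs from these shares was not tested. The part of muscle content in the *hsp90aa1.1* difference was not tested.

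**Figure D3:**
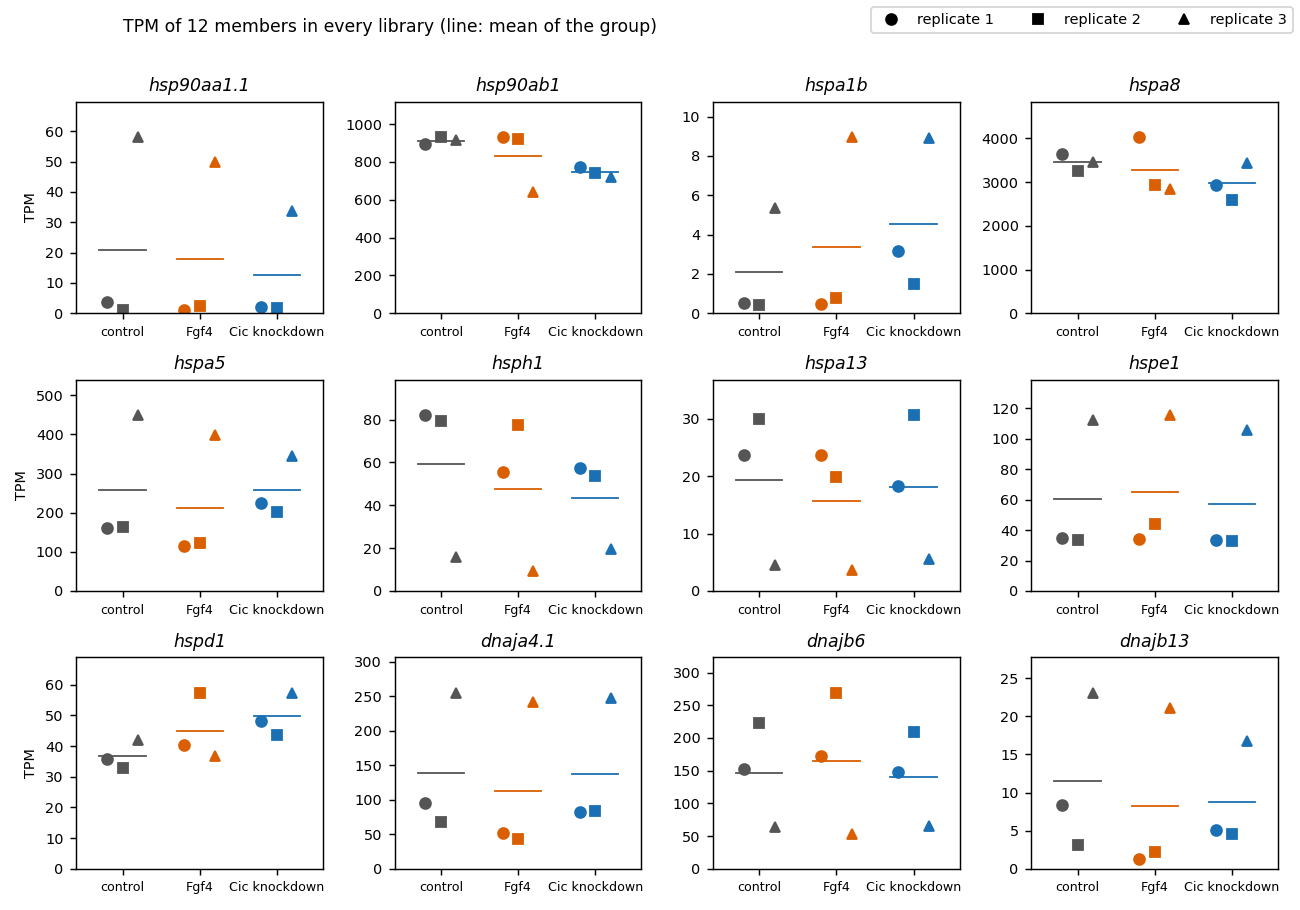
TPM of 12 members in every library, by condition (colour) and replicate number (symbol), with a line at the mean of each condition; each vertical axis starts at 0. Replicate 3 stands apart in all conditions for *hsp90aa1.1* (33.6 to 58.1 TPM) and *hspe1* (105.9 to 115.6 TPM), whereas *hspa8* and *hsp90ab1* overlap.

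In the Hsp70 and Hsp110 family 3 of 10 tested genes were higher in replicate 3, *hspa1l* among them, and 3 were lower. *hspa5* encodes BiP, the Hsp70 of the ER, and stood in replicates 1, 2 and 3 at 161, 164 and 449.9 TPM in control, 115, 123 and 398 TPM in Fgf4 libraries, and 224, 203 and 344 TPM in Cic knockdown libraries. The replicate 3 values again lay above all others, with a log2 change of 1.30 (SE 0.19, adjusted p = 0.00191, limma). *hspa1b*, an Hsp70 gene of the stress-inducible type in mammals, was scarce, at 0.416 to 3.15 TPM in replicates 1 and 2 and at 5.34 to 8.96 TPM in replicate 3 (log2 change 2.50, SE 0.33, adjusted p = 0.00118, limma). *hspa1l* was at 0.175 to 1.91 TPM and 2.26 to 4.26 TPM (log2 change 1.80), again as a description, since it reached the level limit only through Cic knockdown replicate 3. *hspa1a*, a further gene of the inducible type, was too low to test, at 0.0794 TPM or less in replicates 1 and 2 and 0.0221 TPM or less in replicate 3. Hsp70 genes are so alike that reads of one copy may be credited to another. The sum of both genes was 0.640 to 5.06 TPM in replicates 1 and 2 and 7.99 to 13.2 TPM in replicate 3.

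The members that were lower in replicate 3 included a partner and a relative of Hsp70. *hsph1*, an Hsp110 gene for a nucleotide exchange factor that is itself heat-inducible in mammals, stood in replicates 1, 2 and 3 at 82.2, 79.3 and 15.8 TPM in control, 55.5, 77.7 and 9.49 TPM in Fgf4 libraries, and 57.2, 53.7 and 19.6 TPM in Cic knockdown libraries. No replicate 3 library reached the lowest of the other 6, and the log2 change was -2.17 (SE 0.23, adjusted p = 0.000637, limma). *hspa13*, which encodes a microsomal Hsp70 relative, was at 18.3 to 30.7 TPM in replicates 1 and 2 and at 3.70 to 5.53 TPM in replicate 3 (log2 change -2.28, SE 0.19, adjusted p = 0.000315, limma). *hspa2*, an Hsp70 gene needed for sperm development in the mouse, was lower by less, at 8.36 to 11.9 TPM against 4.0 to 5.90 TPM (log2 change -0.92, SE 0.17, adjusted p = 0.00524, limma). The other Hsp110 gene, *hspa4*, was at 96.4 to 125 TPM and 61.6 to 81.8 TPM and did not reach the limit on fold change. *hspa4* was called lower with each library scaled to the same total.

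The pair of mitochondrial chaperonin genes came apart. *hspd1* encodes the Hsp60 cage and *hspe1* its Hsp10 lid. The genes are neighbours in the reference annotation, and in mammals they share a promoter between them. *hspe1* stood in replicates 1, 2 and 3 at 35.0, 33.7 and 112 TPM in control, 34.3, 44.0 and 115.6 TPM in Fgf4 libraries, and 33.5, 32.7 and 105.9 TPM in Cic knockdown libraries. This was a log2 change of 1.64 (SE 0.12, 3.11-fold, adjusted p = 0.00025, limma), with the smallest p of any member. *hspd1* lay at 32.7 to 57.3 TPM in replicates 1 and 2 and at 36.7 to 57.4 TPM in replicate 3, a log2 change of 0.08 (SE 0.19, adjusted p = 0.758, limma) that is given after its value was seen. The ratio of *hspe1* to *hspd1* was accordingly 0.698 to 1.03 in the 6 libraries of replicates 1 and 2 and 1.85 to 3.15 in those of replicate 3.

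Of the 7 small heat shock genes, 3 were tested and 2 were called higher in replicate 3. *hspb11*, whose product is the intraflagellar transport protein IFT25 rather than a typical chaperone, was at 15.7 to 33.6 TPM in replicates 1 and 2 and at 45.6 to 63.2 TPM in replicate 3 (log2 change 1.07, SE 0.15, adjusted p = 0.00151, limma). *hspb7*, a heart and muscle gene in mammals, was at 2.37 to 5.33 TPM and 5.96 to 10.1 TPM (log2 change 0.97, SE 0.26, adjusted p = 0.0199, limma). *hspbp1*, for a nucleotide exchange factor that binds Hsp70, was at 32.1 to 48.0 TPM and 45.3 to 52.9 TPM, ranges that overlap, and was not called.

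Class A J-domain proteins are the full-length relatives of bacterial DnaJ, and 2 of the 5 genes were called higher in replicate 3. *dnaja4.1* stood in replicates 1, 2 and 3 at 95.4, 67.4 and 255 TPM in control, 52.5, 43.8 and 241 TPM in Fgf4 libraries, and 82.2, 83.4 and 247 TPM in Cic knockdown libraries. The replicate 3 values were close to each other in all conditions and far above the rest (log2 change 1.85, SE 0.17, adjusted p = 0.000422, limma). *dnaja4.2*, a copy on another chromosome of the reference annotation, was at 4.85 to 8.45 TPM and 20.4 to 25.5 TPM (log2 change 1.62, SE 0.14, adjusted p = 0.000386, limma). These paralogues were quantified separately, but how reads shared by both were divided was not tested. The other 3 genes of the class, *dnaja1*, *dnaja2* and *dnaja3*, were lower at changes under the limit on fold (-0.67, -0.43 and -0.53, with adjusted p of 0.028, 0.0466 and 0.0117 in limma), so that the class median was -0.43. Of these, *dnaja1* was called lower with each library scaled to the same total.

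Class B genes split, with 2 of 9 tested higher and 3 lower. *dnajb6* encodes a suppressor of protein aggregation and stood in replicates 1, 2 and 3 at 153, 223 and 64.4 TPM in control, 173, 269 and 52.7 TPM in Fgf4 libraries, and 147, 209.5 and 65.3 TPM in Cic knockdown libraries. It was the most abundant class B gene in replicates 1 and 2 and stood below *dnajb12*, a J-domain gene of the ER membrane at 80.8 to 119.9 TPM, in replicate 3 (log2 change -1.65, SE 0.14, adjusted p = 0.000315, limma). *dnajb9*, for an ER cofactor of BiP, was lower by 1.00 on the log2 scale (SE 0.15, adjusted p = 0.00203, limma), from 15.5 to 29.0 TPM to 8.13 to 11.4 TPM. BiP and this cofactor therefore lay on opposite sides. *dnajb2*, a J-domain gene of neurons in mammals, was at 8.95 to 20.9 TPM and 3.65 to 9.26 TPM (log2 change -1.24, SE 0.31, adjusted p = 0.0155, limma), and its ranges overlapped.

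*dnajb13*, a component of the radial spokes of motile cilia, stood in replicates 1, 2 and 3 at 8.34, 3.10 and 23.1 TPM in control, 1.30, 2.24 and 21.1 TPM in Fgf4 libraries, and 5.07, 4.54 and 16.8 TPM in Cic knockdown libraries. Replicate 3 was above the other 6 libraries by 2.35 on the log2 scale (SE 0.38, adjusted p = 0.00275, limma). A list of multiciliated cell genes moved the same way. Its 11 genes in the table summed to 68.1 to 254 TPM in replicates 1 and 2 and to 271 to 399 TPM in replicate 3. These sums are on the deposited scale. With control replicate 1 (total 921975) and Fgf4 replicate 3 (total 1134490) brought to the same total, the ranges overlap. In the fit 5 of 11 were called higher, beside 14.1% of all genes, among them *mcidas*, which commits cells to this fate. None of the list was at 0 in any library. The part of multiciliated cell content in the differences of *dnajb13* and *hspb11* was not tested.

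Class C is the largest class and the most mixed in function, and of its 24 tested genes 3 were called higher in replicate 3 and 4 lower. This is 29.2% called, close to the 26.2% of all genes. The 3 higher ones missed the limits with each library scaled to the same total. *dnajc2*, part of the ribosome-associated complex that meets new chains, was at 78.0 to 126 TPM in replicates 1 and 2 and 152 to 217 TPM in replicate 3 (log2 change 0.93, SE 0.10, adjusted p = 0.000699, limma). The splicing-associated genes *dnajc8* (77.5 to 144 TPM against 173 to 223 TPM) and *dnajc17* (25.4 to 32.2 TPM against 50.0 to 59.8 TPM) changed by 0.97 and 0.96. Their adjusted p were 0.00378 and 0.00102 in limma.

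Among the lower class C genes, *dnajc30*, a mitochondrial protein, was at 4.35 to 7.25 TPM and 0.947 to 1.54 TPM (log2 change -1.81, SE 0.21, adjusted p = 0.000783, limma). *dnajc7*, a partner of both Hsp70 and Hsp90, was at 93.1 to 128 TPM and 42.3 to 60.5 TPM (log2 change -0.98, SE 0.18, adjusted p = 0.0042, limma). *dnajc16* and *dnajc11*, the latter at the mitochondrial inner membrane organising system, changed by -0.93 and -0.87. Their adjusted p were 0.0046 and 0.00697 in limma, and neither gene's ranges overlapped. *dnajc19* was at 213 to 322 TPM and 409 to 478 TPM, with no overlap, but did not reach the limit on fold change.

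The heat shock factors themselves were not called. *hsf1* lay at 23.1 to 42.2 TPM in replicates 1 and 2 and at 24.4 to 39.2 TPM in replicate 3, a log2 change of -0.12 (SE 0.18, adjusted p = 0.603, limma) that turned to 0.06 without Fgf4 replicate 3 and to 0.01 without Fgf4 replicate 1. *hsf2* was at 39.7 to 56.8 TPM and 30.2 to 35.5 TPM, a log2 change of -0.51 (SE 0.14, adjusted p = 0.0212, limma), below the limit on fold change although the groups did not overlap.

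**Figure D4:**
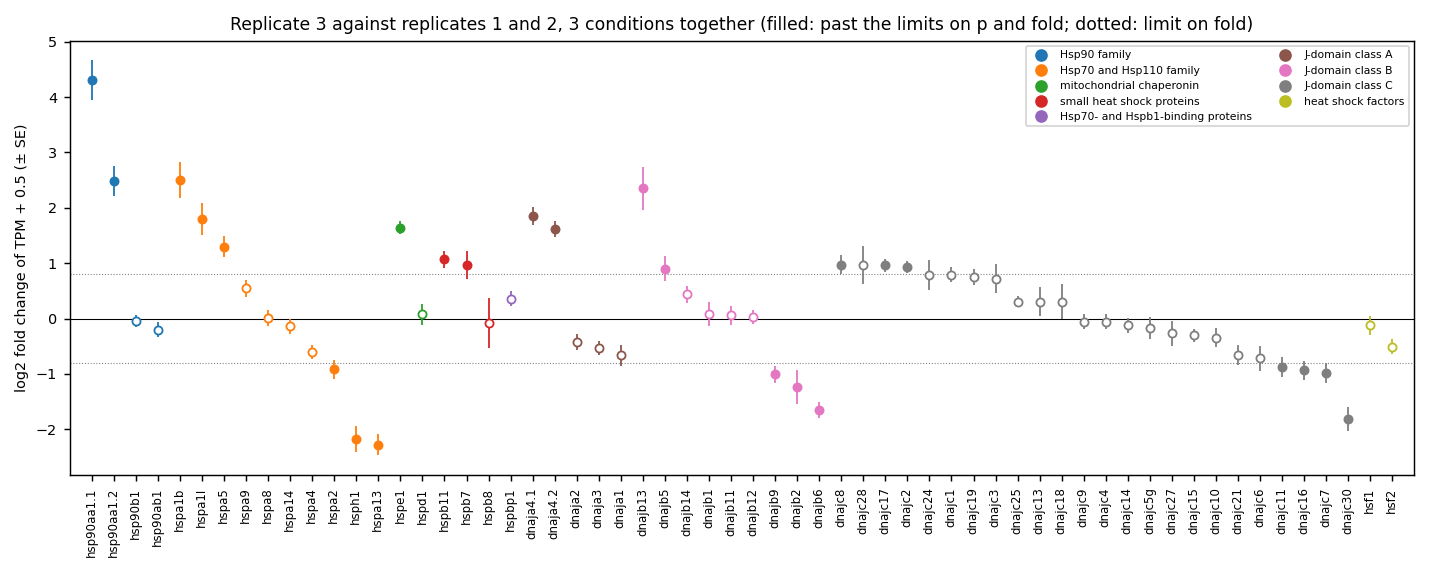
Log2 fold change ± SE of the 60 tested members in replicate 3 against replicates 1 and 2, by role class; filled points passed the limits on p and fold change, and dotted lines mark the limit on fold change. *hsp90aa1.1* stands highest at 4.31 and *hspa13* lowest at -2.28, and every J-domain class and the Hsp70 class hold values on both sides of 0.

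Leaving out 1 library at a time, 18 of the 25 calls held in every fit that tested them and 7 did not. The 18 include *hsp90aa1.2* and *hspa1l*, whose calls lend no support because they reached the level limit only through replicate 3. *hspa1l* was not tested without Cic knockdown replicate 3. *dnajc8* was lost without Cic knockdown replicate 3 (0.77), *dnajc7* without Fgf4 replicate 3 (-0.71), and *hspa2* without control replicate 3 (-0.82). *dnajc11* was lost without control replicate 3 (-0.82), Fgf4 replicate 1 (-0.78) or Fgf4 replicate 3 (-0.72). The least stable calls were *dnajb2*, lost in 5 of 9 fits (-1.56 to -0.94 over all fits), *dnajb5*, lost in 6 (0.72 to 1.1), and *hspb7*, lost in 7 (0.67 to 1.31). With each library scaled to the same total, *dnajc2* (0.67), *dnajc17* (0.70), *dnajc8* (0.71), *dnajb5* (0.67) and *hspb7* (0.72) stayed above 0 but missed the limits. The same scaling added *dnaja1*, *dnajc6*, *dnajc21* and *hspa4* as lower calls.

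Partner genes outside the family were counted from fixed lists. Their counts stand beside the 14.1% of all genes called higher and the 12.1% called lower in replicate 3. Whether any list differs from these shares was not tested. Of 26 tested co-chaperones of Hsp90 and Hsp70, 3 were called higher in replicate 3 and 3 lower, with a median log2 change of -0.07. This is 23.1% called, close to the 26.2% of all genes. *ahsa1*, which stimulates the Hsp90 ATPase, was at 34.9 to 57.2 TPM and 70.9 to 118 TPM (log2 change 1.12, adjusted p = 0.00171, limma), and *fkbp4* and *sugt1* were also higher. *aip*, a co-chaperone of the aryl hydrocarbon receptor, was at 31.9 to 47.7 TPM and 6.44 to 7.64 TPM (log2 change -2.34, adjusted p = 0.000178, limma), and *ptges3*, which encodes p23, and *grpel2* were also lower. None of the 8 genes of TRiC, the cytosolic chaperonin, was called (median 0.25, with 4 at p under 0.05 and 3 at an adjusted p of at most 0.05 in limma). Of all 13833 genes tested, 7406 had a p under 0.05 and 6201 an adjusted p of at most 0.05 in limma. Of the 6 prefoldin genes, *pfdn5* and *pfdn6* were higher (1.25 and 1.29) and *vbp1* lower (-0.85). Of 16 genes of ER folding and the unfolded protein response, *atf4*, *ddit3*, *edem1* and *herpud1* were higher and *atf6* lower (31.2% called). *edem1* was also called higher in replicate 2 against replicate 1, the only call of this list there. Of the co-chaperones, *bag2* alone was called in that comparison, as lower (log2 change -2.36, adjusted p = 0.118, limma). *atf4* was at 247 to 348 TPM in replicates 1 and 2 and 562 to 717 TPM in replicate 3 (log2 change 1.07, adjusted p = 0.000884, limma).

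Replicates 1 and 2 differed far less. In replicate 2 against replicate 1, 1 of 60 members was called higher (1.61% of all genes) and none lower (2.31% of all genes). At an unadjusted p under 0.05 limma gave 11 members, beside 2848 of all 13833 genes tested. The called gene was *dnajb1*, the inducible partner of Hsp70, which stood in replicates 1, 2 and 3 at 13.0, 28.3 and 22.5 TPM in control, 10.6, 32.3 and 22.8 TPM in Fgf4 libraries, and 31.6, 40.5 and 29.9 TPM in Cic knockdown libraries. The replicate 2 library was the highest in each condition (log2 change 1.01, SE 0.25, unadjusted p = 0.00439, adjusted p = 0.146, limma), and the ranges overlapped. The call was lost without control replicate 1 (0.94), control replicate 2 (1.01), Fgf4 replicate 1 (0.74) or Fgf4 replicate 2 (0.85). *hspb11* had the smallest p (log2 change 0.81, SE 0.17, unadjusted p = 0.00197, adjusted p = 0.139, limma) and missed the limit on fold change at 1.748-fold. *dnajb6* was next, at 0.56 (SE 0.16, adjusted p = 0.169, limma).

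The second question was whether Fgf4 overexpression changed the chaperones, and none of the 59 members tested was called. Of all genes 1.40% were called higher and 1.16% lower. At an unadjusted p under 0.05 limma gave 3 members, beside 1784 of all 13437 genes tested. None of all genes reached an adjusted p of 0.05. The median log2 change was -0.07 for the members and 0.01 for all genes. The members with the smallest p were both *dnaja4* copies and *dnajc4*. *dnaja4.1* was at 139 ± 101 TPM in control and 113 ± 112 TPM in Fgf4 libraries (SD, n = 3), a spread set by replicate 3, and its log2 change within replicate numbers was -0.52 (SE 0.20, adjusted p = 0.351, limma). *dnaja4.2* changed by -0.45 (SE 0.17, adjusted p = 0.344, limma). *dnajc4* stood at 10.8, 10.1 and 9.71 TPM in control and at 7.58, 7.58 and 7.26 TPM in Fgf4 libraries, without overlap (log2 change -0.42, SE 0.16, adjusted p = 0.349, limma).

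Cic knockdown gave 1 call among 60 members. Of all genes 3.99% were called higher and 0.75% lower, against 1 member higher and none lower. At an unadjusted p under 0.05 limma gave 11 of the 60 members, beside 2335 of all 13598 genes tested. The 11 include *hspa1l*, which reached the level limit only through Cic knockdown, where it is high. They also include *hspb8*, which reached it only through control. None of all genes reached an adjusted p of 0.05, the lowest being 0.0712 in limma. The median log2 change was -0.06 for the members and -0.02 for all genes. J-domain class B had a median of 0.46, with 6 of 9 genes above 0 and 4 at an unadjusted p under 0.05 in limma. The lowest adjusted p of that class was 0.159 in limma. This class was picked out after its values were seen and was not tested as a set. The called gene was *dnajb5*, a J-domain gene known in mammals from cardiac muscle. It stood in replicates 1, 2 and 3 at 2.16, 0.805 and 3.94 TPM in control, 3.27, 1.64 and 4.94 TPM in Fgf4 libraries, and 4.35, 3.14 and 5.46 TPM in Cic knockdown libraries. Each knockdown library was above the control library of the same number, although the groups overlapped (2.30 ± 1.58 against 4.31 ± 1.16 TPM, SD, n = 3).

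The log2 change of *dnajb5* was 0.92 (SE 0.26, 1.90-fold, unadjusted p = 0.00853, adjusted p = 0.159, limma). Without the replicate number as a block the unadjusted limma p was 0.110. Of 12 fits that left out a library or a replicate number, the call held without Cic knockdown replicate 3 and was lost in the other 11, with log2 changes of 0.64 to 1.17. It differed in replicate 3 as well, by 0.90 (SE 0.22, adjusted p = 0.0154, limma).

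Among the members not called in Cic knockdown, *dnajc2* and *hspa1b* had the smallest p values, and that of *dnajc2* was below that of *dnajb5*. *dnajc2* stood in replicates 1, 2 and 3 at 126, 108 and 217 TPM in control and at 81.1, 78.0 and 152 TPM in Cic knockdown libraries, lower in all 3 pairs. The log2 change of -0.54 (SE 0.12, 0.687-fold, unadjusted p = 0.00245, adjusted p = 0.103, limma) did not reach the limit on fold change. *hspa1b* stood at 0.516, 0.416 and 5.34 TPM in control and at 3.15, 1.48 and 8.92 TPM in Cic knockdown libraries, higher in all 3 pairs (log2 change 1.22, SE 0.38, unadjusted p = 0.0136, adjusted p = 0.186, limma). It was called in the fit of only the 6 control and knockdown libraries (1.22), where it took the place of *dnajb5* as the single call, and also without Fgf4 replicate 1 (1.22) and without Cic knockdown replicate 3 (1.56).

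*hsf1* stood in replicates 1, 2 and 3 at 36.4, 36.7 and 39.2 TPM in control, 42.2, 27.9 and 24.4 TPM in Fgf4 libraries, and 23.1, 25.5 and 24.6 TPM in Cic knockdown libraries. The control and knockdown libraries did not overlap, and the Fgf4 libraries spanned both. The log2 change was -0.61 in Cic knockdown (SE 0.20, unadjusted p = 0.0189, adjusted p = 0.209, limma) and -0.28 in Fgf4 libraries (SE 0.20, adjusted p = 0.578, limma), and neither passed. *hsf2* changed by 0.00 in Cic knockdown (SE 0.16, adjusted p = 0.992, limma) and by 0.23 in Fgf4 libraries (SE 0.16, adjusted p = 0.557, limma).

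**Figure D5:**
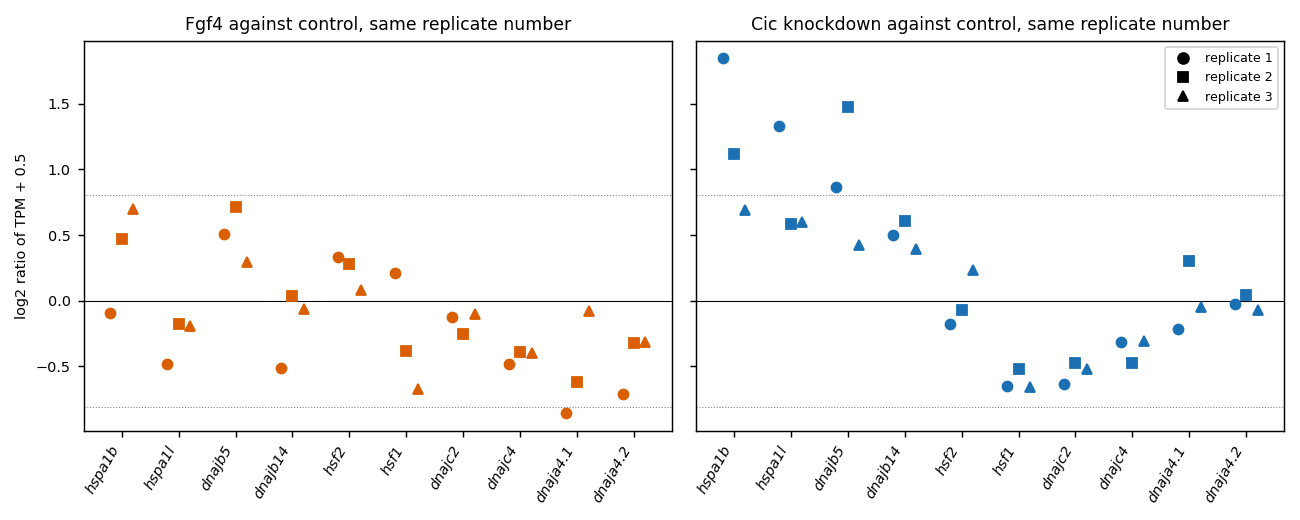
Log2 ratio of TPM + 0.5 to the control library of the same replicate number for 10 members, in Fgf4 overexpression (left) and Cic knockdown (right); symbols are replicate numbers and dotted lines mark the limit on fold change. In Cic knockdown *dnajb5*, *hspa1b* and *hspa1l* lie above 0 and *hsf1* and *dnajc2* below 0 in all 3 pairs. For *hspa1l* this is a description, since it reached the level limit only through Cic knockdown, where it is high.

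The treatments were also compared with each other, which tests the difference between them directly; both share the control libraries. None of 59 members was called between Cic knockdown and Fgf4 overexpression in limma. Of all genes 1.76% were called higher in the knockdown and 0.375% lower. An unadjusted p under 0.05 in limma was reached by 7 members, beside 1843 of all 13607 genes tested. *dnajb14*, a J-domain gene of the ER membrane, stood in replicates 1, 2 and 3 at 5.57, 8.28 and 10.6 TPM in Fgf4 libraries and at 11.8, 12.6 and 14.8 TPM in Cic knockdown libraries, without overlap. Its log2 change of 0.68 (SE 0.18, unadjusted p = 0.00691, adjusted p = 0.331, limma) was below the limit on fold change. *hspa1l* and *dnajc2* followed, at 1.12 (SE 0.33) and -0.38 (SE 0.12), both with an adjusted p of 0.331 in limma. No gene of the whole table had an adjusted p below 0.331 in this comparison. *hspa1l* was tested here only because its level in Cic knockdown reached the limit. *hspa1l* was called in the fits with no filter on level or a constant variance prior (1.12), and with each library scaled to the same total (1.21). The log2 changes of *hsf1* and *hsf2* were -0.33 (SE 0.20) and -0.24 (SE 0.16), with adjusted p of 0.480 and 0.507 in limma.

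No gene of the co-chaperone, TRiC, prefoldin or ER lists was called in limma in either treatment against control. Of all genes 2.56% were called in Fgf4 overexpression and 4.74% in Cic knockdown. Of the 26, 8, 6 and 16 genes tested, 3, 1, 0 and 0 had an unadjusted limma p under 0.05 in Fgf4 overexpression. In Cic knockdown 1, 3, 1 and 1 did. The same held for 1784 of 13437 and 2335 of 13598 of all genes. No TRiC gene lay above 0 in either treatment (medians -0.13 and -0.27), which was seen after the fact and not tested. Among 18 genes typical of the oocyte and of maternal RNA, 10 were called higher in Cic knockdown, beside 3.99% of all genes. The median log2 change of the 18 was 1.30, and they summed to 216 to 405 TPM in control and 591 to 669 TPM in knockdown libraries. The part of maternal RNA in the values of *dnajb5*, *hspa1b* and *hsf1* was not tested. The neural plate genes *sox2* and *sox3*, 2 of 4 tested, were called lower in Cic knockdown, beside 0.75% of all genes. In Fgf4 overexpression 3 of 11 multiciliated cell genes were called lower (median log2 change -1.12), beside 1.16% of all genes. The 2 lowest libraries for *dnajb13*, Fgf4 replicates 1 and 2, were also the 2 lowest for this list, at 68.1 and 116 TPM.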

How the data were processed

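The authors sequenced poly(A) RNA of the 9 libraries, ran Salmon on *X. tropicalis* genome version 9.1 and aggregated by gene for sleuth; the submitters' processing notes also name cutadapt. The deposited signal values are TPM that were rescaled between libraries by a step not given in the sources used here. These values therefore give no counts, depth of each library or counting intervals. The paper states a minimum number of reads per sample and reports FASTQ files as submitted, which were not used here. The 3 columns of the authors' group means were not used. All columns of single libraries were mapped.

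Members and lists were chosen with earlier results of these data known. limma 3.58.1 in R 4.3.3 (lmFit, eBayes with trend; 4 residual and 3.31 median prior degrees of freedom) fitted all genes, and p values are two-sided with Benjamini-Hochberg adjustment over all genes tested. The p values measure the scatter between these libraries that is left after condition and replicate number are fitted. In the comparisons of replicate numbers they do not measure how much sets of libraries vary. Named genes are the members called in a comparison, both heat shock factors, the 3 smallest p per comparison and the 3 highest levels per role class; others were added after their values were seen. Same-numbered libraries deviated together (correlations of 0.38 to 0.79 over 13833 genes, against -0.73 to 0.34 for different numbers), so the number was kept as a block. All 72 symbols matched the RefSeq gene table of another build, used for names and neighbours alone. The fit was tested on simulated data. Alternatives were no block, pseudocounts of 0.1 and 1, level limits of 5 and none, fits of 6 libraries only, a variance prior without trend, same-total and median-of-ratios scaling, adjusted p ≤ 0.05 in place of unadjusted p, and omission of single libraries and of whole replicate numbers.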

Additional observations from a re-analysis of the deposited data

How the results depend on the processing

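The absence of a call in Fgf4 overexpression held in every alternative run, and leaving out a library or replicate number gave 0 to 0 calls. The single Cic knockdown call became 0 without the replicate block, with a pseudocount of 1, with no filter on level, and at an adjusted p of at most 0.05. With a level limit of 5 the count was also 0, but *dnajb5*, at a mean of 4.31 TPM in Cic knockdown, was not tested there. The call passed from *dnajb5* to *hspa1b* in the fit of 6 libraries. The count ranged from 0 to 4 when a library or number was left out (4 without Cic knockdown replicate 2: *dnajb2*, *dnajc18*, *dnajc5g* and *hspb8*). Cic knockdown against Fgf4 went from 0 to 1 with no filter on level, with a constant variance prior and with same-total scaling, and ranged from 0 to 2 with libraries left out. Replicate 3 against replicates 1 and 2 gave 21 to 26 calls with libraries left out, of which 20 to 24 were among the 25. Replicate 2 against replicate 1 gave 2 with a pseudocount of 0.1 and with either other scaling, 0 at an adjusted p of at most 0.05, and 0 to 4 with libraries left out (4 without Cic knockdown replicate 2). Values near 0 changed sign: *hsf2* in Cic knockdown was 0.09 with same-total scaling and -0.16 to 0.11 with libraries left out, and in replicate 2 against replicate 1 was 0.02 with median-of-ratios scaling and -0.13 to 0.07. *hsf1* ranged from -0.23 to 0.06 in replicate 3 against replicates 1 and 2 and from -0.29 to 0.11 in replicate 2 against replicate 1. The cause of these changes was not tested. Leaving out the replicate block ended the call of *dnajb5* and added none. With 3 libraries per condition and no counts, low members such as *hspa1l*, *hsp90aa1.2* and *hspb8* are the least certain. *hspb8* reached the level limit only through control, where it is high in replicate 1, so its call in Cic knockdown is a description.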

Other observations

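Some heat shock genes carry names that the choice of members left out, and their values were looked at after the fact. A gene listed as *hsp70* was at 0.910 to 3.16 TPM in replicates 1 and 2 and at 3.26 to 4.25 TPM in replicate 3. These ranges do not overlap on the deposited scale. They overlap with control replicate 1 (total 921975) and Fgf4 replicate 3 (total 1134490) brought to the same total. The log2 change of *hsp70* in replicate 3 against replicates 1 and 2 was 0.94 (SE 0.28, adjusted p = 0.0282, limma). It passed the limit on fold change but not that on p. The amphibian small heat shock genes *hsp30c*, *hsp30d* and *hsp30e*, which are strongly induced by heat in *Xenopus* embryos, reached at most 0.440, 0.779 and 0.538 TPM in any library and were below the level limit. Near this floor, *hsp30c* was at 0 to 0.063 TPM in replicates 1 and 2 and 0.118 to 0.440 TPM in replicate 3. *hsp30e* was at 0 and at 0.118 to 0.538 TPM, and the ranges of *hsp30d* overlapped (0 to 0.246 and 0 to 0.779 TPM). *hsf2.2* was at 24.4 to 35.8 TPM in replicates 1 and 2 and at 16.6 to 18.4 TPM in replicate 3, without overlap (log2 change -0.75, SE 0.13, adjusted p = 0.00317, limma), and *hsf3* at 10.8 to 23.2 TPM and 11.9 to 18.0 TPM.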
